A study of Rattus norvegicus with 32 samples.

Results

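Livers of rats that breathed filtered air for a second day were compared with livers of rats that had breathed it for 1 day. The arrays were taken by their titles: 5 arrays from the end of the second 6 h session in filtered air (day 2 air) against 6 arrays from the end of the first (day 1 air). They are 11 of the 32 arrays of a study of inhaled ozone and the liver. The comparison shows what changed in the liver between both sessions with no ozone given. All rats were male Wistar Kyoto rats, 10 weeks old and 250 to 300 g in weight. Day 1 air livers were taken at 0 h after 1 session and day 2 air livers at 0 h after sessions on 2 consecutive days. The other groups used below are air at 18 h after day 2 (5 arrays), and ozone at 1 ppm at the end of day 1 (6 arrays), at the end of day 2 (5) and at 18 h after day 2 (5). Total liver RNA was labelled with biotin and hybridised to Affymetrix rat gene expression arrays, 1 sample to each array. Nothing in the labels states that the arrays came from separate animals, so the p-values measure the spread between these samples, and the number of arrays limits the precision. Values are deposited probe-set intensities on the scale log2(intensity + 16), where a difference of 1 is a doubling for a bright gene and less for a dim one. Tested were 19062 probe sets that name a single gene, for 13437 genes, and where a gene had several probe sets the brightest stood for it.

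The liver has a strong daily and feeding rhythm. Genes of amino acid breakdown, glucose output and lipid synthesis follow meals, insulin and glucocorticoids, and a new cage or inhalation chamber is itself a stressor for a rodent. Most hepatocytes of an adult rat rest outside the cell cycle. Cyclin D1, the product of Ccnd1, binds the kinases CDK4 and CDK6, which phosphorylate the retinoblastoma protein and so move a cell from G1 towards S phase, and in the liver its level also follows nutrients and growth factors. Kupffer cells, the resident macrophages of the liver sinusoids, sit beside the hepatocytes and contribute a small share of total liver RNA.

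The arrays held liver RNA by their hepatocyte markers, 11 of 12 of which were measured. Albumin (Alb) lay between 13.66 and 13.71 in all 11 arrays, and the median of the hepatocyte list lay between 13.07 and 13.21. Array medians lay between 146.6 and 160.6 intensity units. As a measure of RNA integrity, the signal ratio of beta-actin probes at the 3' and 5' ends was 2.60 ± 0.141 (SD, n = 6) on day 1 and 2.52 ± 0.151 (n = 5) on day 2 (exact permutation test, two-sided, p = 0.42). A pair of arrays stood apart. Day 2 air replicate 5 lay at 23.3 on the first principal component of the 11 arrays (43.2% of the variance), and the others lay between -7.1 and 2.9. Centred on the mean of all arrays, it correlated at -0.55 with the rest of its own group and at 0.63 with ozone on day 2. It differed by at least 1 from the mean of the other day 2 air arrays in 73 genes, where the other 10 arrays differed from theirs in 1 to 15 genes. Day 1 air replicate 2 had a median signal of 54.3 at the probes for nonspecific binding, against 85.2 to 92.0 on the others, so its dim genes read low. By the same correlation, day 1 air replicate 5 and day 2 air replicates 1 and 2 lay closer to the other air group than to their own. The day 2 air mean used for them included replicate 5 of day 2, so this order depends on that array too. All arrays were kept as labelled, and the differences that moved most without 1 array are given without it too.

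A single gene, Ccnd1, passed the threshold between the air livers of both days, and it fell. It passed on all 3 of its probe sets, and no other probe set passed (limma, Benjamini-Hochberg adjusted p under 0.05). That is 3 of 19062 probe sets (0.0157%) and 1 of 13437 genes (0.00744%), with 0 rises (0%). Without single air arrays, 0 to 6 genes passed: 0 without day 1 air replicate 6, day 2 air replicate 3 or day 2 air replicate 5, 2 without day 1 air replicate 1 (Ccnd1 and Xiap) or replicate 2 (Ccnd1 and the granzyme Gzmm, -0.17, adjusted p = 0.03), and 6 without day 2 air replicate 1. At an unadjusted p under 0.05, 873 genes (6.5%) differed, 428 higher on day 2 (3.19%) and 445 lower (3.31%). The differences were small. The median absolute log2 difference over all genes was 0.04, 15 genes differed by at least 0.5 and 0 by at least 1 on their brightest probe set. In a plot of difference against p, the probe sets of Ccnd1 lie apart from all others.

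**Figure D1:**
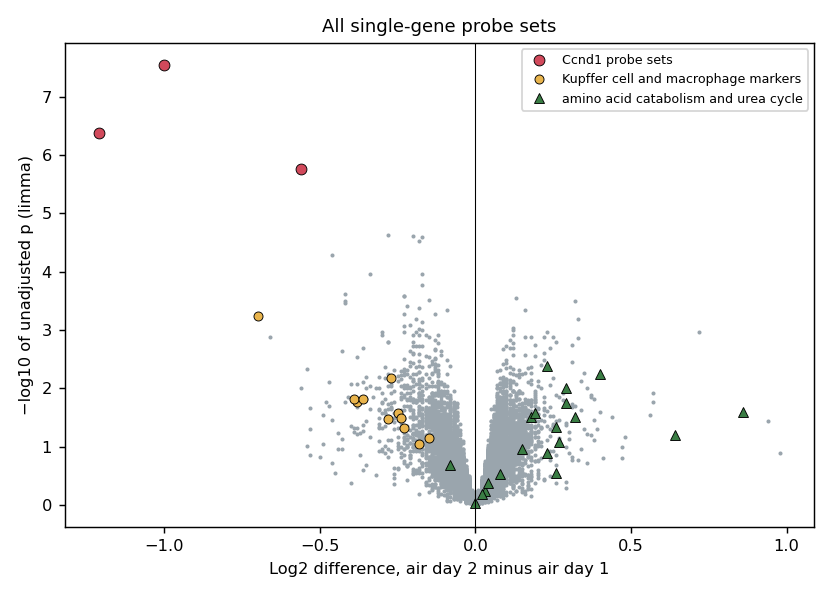
Each point is 1 of the 19062 probe sets, with its log2 difference (day 2 air minus day 1 air) on the x axis and the −log10 of its unadjusted limma p on the y axis. The 3 probe sets of Ccnd1 (red circles) lie highest, at differences between -1.21 and -0.56, the Kupffer cell markers (yellow) all lie left of 0, and the genes of amino acid catabolism (green triangles) lie mostly right of it.

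On the brightest probe set of Ccnd1, 1371643_PM_at, the 6 day 1 air arrays had a lowest value of 8.84, a median of 9.03 and a highest value of 9.28. The 5 day 2 air arrays read 8.68, 8.55, 8.40, 8.70 and 8.18 (replicates 1 to 5). Every day 2 array lay below every day 1 array, and replicate 5 lay lowest. The mean fell from 9.06 ± 0.16 (SD, n = 6) to 8.50 ± 0.22 (n = 5), a log2 difference of -0.56 ± 0.10 (SE; 95% interval -0.75 to -0.37; limma adjusted p = 0.011), or 1.47-fold. Probe set 1383075_PM_at read 8.96 to 9.70 (median 9.46) on day 1 and 8.65, 8.25, 8.11, 8.52 and 7.38 on day 2. Its groups did not overlap either, and replicate 5 of day 2 stood furthest below the others. It fell by 1.21 ± 0.19 (interval -1.60 to -0.83, adjusted p = 0.0039), or 2.32-fold. Probe set 1371150_PM_at read 8.65 to 9.57 (median 9.10) on day 1 and 8.46, 8.05, 7.96, 8.42 and 7.67 on day 2. Again no day 2 array reached the lowest day 1 array. It fell by 1.00 ± 0.14 (interval -1.28 to -0.72, adjusted p = 0.00054), or 2.00-fold. The fall was thus seen on 3 sets of probes, which measured the same RNA and so are not 3 replicates. Over all genes, 27 (0.201%) lay lower in every day 2 array than in every day 1 array and 26 (0.193%) lay higher.

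The call rests on a spread that all 6 groups of the study share. In a fit of the 11 air arrays alone, the differences were the same and the adjusted p-values were 0.48 (1371643_PM_at), 0.39 and 0.39, with unadjusted p = 0.0001, 4.3e-05 and 6.1e-05, so Ccnd1 did not pass there. Without day 2 air replicate 5, probe set 1371643_PM_at had a difference of -0.48 (adjusted p = 0.099) and no longer passed, and the other probe sets passed at -1.01 (adjusted p = 0.024) and -0.89 (0.0048). The brightest probe set also missed the threshold without day 1 air replicate 6 (-0.53, adjusted p = 0.056) or day 2 air replicate 3 (-0.53, adjusted p = 0.079), and 1371150_PM_at passed without each of the 11 arrays in turn.

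**Figure D2:**
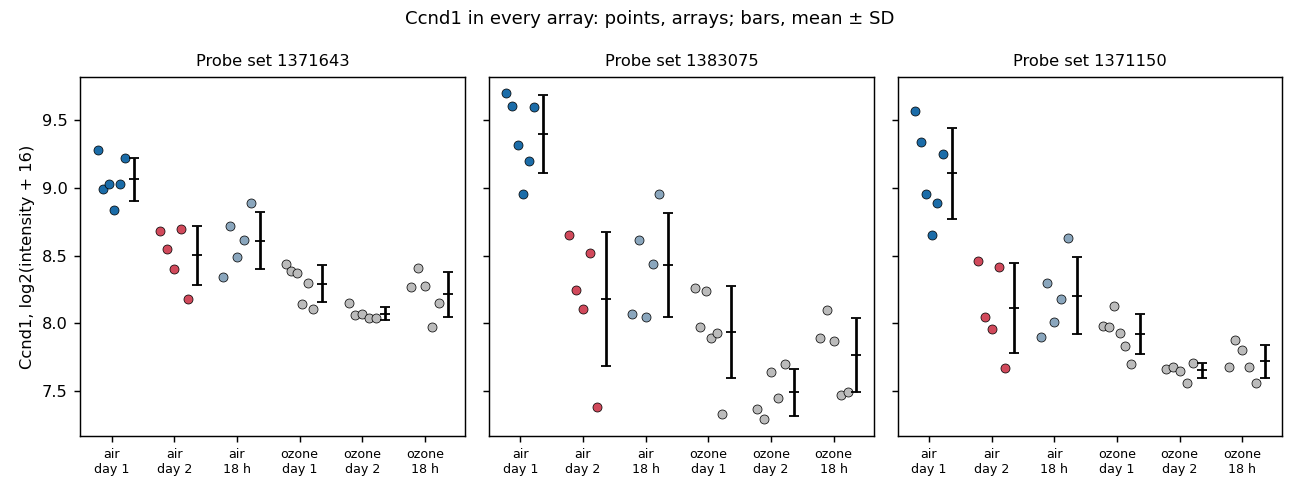
Level of Ccnd1, log2(intensity + 16), on its 3 probe sets; each point is an array, and bars give the mean ± SD of its group (n = 5 or 6). The 6 day 1 air arrays (dark blue) lie above all 5 day 2 air arrays (red) on each probe set, and group means are lowest in ozone on day 2.

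Day 1 air was the group with the highest mean Ccnd1 level of all 6 on each probe set. On 1371643_PM_at the means ran from day 1 air (9.06 ± 0.16) through air at 18 h after day 2 (8.61 ± 0.21), day 2 air (8.50 ± 0.22), ozone on day 1 (8.29 ± 0.14) and ozone at 18 h after day 2 (8.22 ± 0.17) to ozone on day 2 (8.07 ± 0.04). The other probe sets gave the same order. On 1371643_PM_at, neighbours in this order from air at 18 h on differed by no more than the larger of both SDs. On 1371150_PM_at, ozone on day 1 (7.92 ± 0.15) and ozone at 18 h (7.72 ± 0.13) lay further apart than that. On 1371643_PM_at, air at 18 h overlapped with day 1 air through its highest array, which read 8.89 against a lowest day 1 value of 8.84. On 1371150_PM_at the highest array of air at 18 h read 8.63, below the lowest day 1 value of 8.65. Against the same 6 day 1 air arrays, air at 18 h was lower by -0.45, -0.97 and -0.91 on the 3 probe sets in the order above (adjusted p = 0.0085, 0.0042 and 0.00017). In that contrast 143 genes passed (1.06%). Ozone on day 1 was lower than the same arrays by -0.77, -1.46 and -1.19 (adjusted p = 3.2e-07, 6.7e-07 and 1.2e-07), in a contrast in which 1817 genes fell (13.5%). These 3 comparisons share the day 1 air arrays, so a high level in those arrays enters all of them. Whether the day 1 level or the later levels are the unusual ones cannot be told apart, since no rat was sampled before the first session.

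In ozone livers the second day brought a smaller Ccnd1 difference. Ozone on day 2 minus ozone on day 1 was -0.22 (adjusted p = 0.16), -0.45 (0.15) and -0.27 (0.25), in a contrast with 1502 genes past the threshold (11.2%). The change in ozone minus the change in air was 0.34 ± 0.13 (adjusted p = 0.17), 0.77 ± 0.27 (0.11) and 0.73 ± 0.19 (0.031), so it passed on 1371150_PM_at alone. There it missed the threshold in 10 of 22 fits that left out 1 end-of-exposure array, with adjusted p between 0.012 and 0.075, the highest without day 2 air replicate 5.

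Ccnd1 was the only listed cell cycle gene past the threshold. Of 20 cell cycle genes listed, 1 fell (Ccnd1) and 0 rose, and the list's median log2 difference was -0.02, beside 0.012 over all genes. At an unadjusted p under 0.05, 5 of the 20 were lower, beside 3.31% of all genes, a count that stayed at 5 or 6 without any single air array. They were Ccnd1, the ribonucleotide reductase subunit Rrm2 (-0.20 ± 0.07), the mitotic cyclin Ccnb2 (-0.17 ± 0.04), topoisomerase Top2a (-0.12 ± 0.03) and the mitotic kinase Cdk1 (-0.14 ± 0.05), and the last 4 did not pass (adjusted p = 0.72, 0.47, 0.53 and 0.72). Arrays can also be weighted in limma by how closely each follows its group mean in these same values. Day 2 air replicate 3 then had a weight of 4.211 and the other day 2 air arrays 0.3186 to 1.025. Results given with array weights therefore lean on replicate 3. With these weights, Ccnb2 (-0.19), Top2a (-0.16) and Cdk1 (-0.20) passed as well, each with limma adjusted p = 0.017. These are dim signals. Ccnb2 read 6.87 to 7.26 on day 1 and 6.86 to 6.92 on day 2, where probes for nonspecific binding read 6.66 to 6.75 on the same scale on 10 arrays and 6.14 on day 1 air replicate 2. The proliferation markers Mki67 (-0.02) and Pcna (-0.01) and the inhibitors Cdkn1a (0.04) and Cdkn1b (0.04) did not pass.

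Genes were then taken by symbol, after the values had been seen. They were cyclins of types A to E, H, K and O, kinases from Cdk1 to Cdk19, Cdkn1 and Cdkn2 inhibitors, and the RB and E2F families. Other cyclins and Cdkn3 were not in this set, and Cdkn3 was lower by -0.26 with array weights (limma adjusted p = 0.0066). Of these 41 genes 0 rose and 1 fell, with a median difference of 0.00. At an unadjusted p under 0.05, 5 were lower and 0 higher, beside 3.31% and 3.19% of all genes. After Ccnd1 the lowest difference was -0.20 and the highest was 0.09. The other D-type cyclins, which bind the same kinases, differed by -0.14 (Ccnd2, adjusted p = 0.72) and -0.00 (Ccnd3, 0.99). Ccnd2 read 7.83 to 8.05 on day 1 and 7.97, 7.82, 7.72, 7.82 and 7.58 on day 2. Cdk4, the kinase partner of cyclin D1, read 8.50 to 8.72 on day 1 and 8.66, 8.74, 8.67, 8.56 and 8.46 on day 2, with a difference of -0.01. Rb1, the retinoblastoma gene, read 8.46 to 8.63 on day 1 and 8.64, 8.37, 8.38, 8.37 and 8.01 on day 2. Its groups overlapped through day 2 air replicate 1, and it did not pass.

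Beyond Ccnd1, the genes with the smallest p among those lower on day 2 were Plekha8 and Xiap, which missed the threshold. Plekha8, a lipid transfer protein of the Golgi, read 7.81 to 7.91 (median 7.84) on day 1 and 7.81, 7.65, 7.65, 7.62 and 7.50 on day 2. Its groups did not overlap by a narrow margin at replicate 1 (-0.20 ± 0.04, adjusted p = 0.078). Xiap, an inhibitor of caspases, read 7.26 to 7.45 on day 1 and 7.25, 7.18, 7.20, 7.19 and 7.05 on day 2 (-0.17 ± 0.04, adjusted p = 0.078). Both are dim, and the nearest arrays of both days nearly touch. Without day 2 air replicate 1, Plekha8 (-0.24, adjusted p = 0.004), Xiap (-0.19, 0.023), the annexin Anxa7 (-0.20, 0.023), the macrophage gene Cd5l (-0.90, 0.023) and the chemokine Ccl6 (-0.85, 0.049) passed beside Ccnd1. Xiap also passed without day 1 air replicate 1 (-0.19, 0.045).

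Among the brighter genes lower on day 2, Cd63, a tetraspanin of late endosomes, read 9.48 to 9.87 (median 9.61) on day 1 and 9.33, 9.45, 8.90, 9.22 and 9.19 on day 2. No array overlapped, and the difference was -0.42 ± 0.10 (adjusted p = 0.34). Eif5, a translation initiation factor that activates GTP hydrolysis by eIF2, read 10.74 to 10.88 on day 1 and 10.51, 10.07, 10.49, 10.69 and 10.26 on day 2. Its groups did not overlap either (-0.42 ± 0.10, adjusted p = 0.34). Against the same day 1 arrays, Eif5 was lower at 18 h after day 2 by -0.59 (adjusted p = 0.0013) and Cd63 by -0.05 (0.90). The other genes lowest by p were Bod1l1, a protector of replication forks (-0.17), the palmitoyltransferase Zdhhc23 (-0.23), the immunoglobulin gene Ighl13 (-0.23), the retinol dehydrogenase Rdh5 (-0.22) and perforin, Prf1 (-0.19), with adjusted p between 0.29 and 0.45. Against the same day 1 arrays, Plekha8 (-0.29, adjusted p = 7.3e-05), Xiap (-0.22, 0.00029) and Bod1l1 (-0.27, 0.00016) were past the threshold at 18 h after day 2. These genes and Eif5 were named for a small p against day 1 air. Both contrasts share those arrays, so such genes are more likely to pass at 18 h too. With array weights, 76 genes fell between the air days, among them Cd63 (-0.59, adjusted p = 0.013), Eif5 (-0.38, 0.047), Plekha8 (-0.19, 0.017), Xiap (-0.12, 0.033) and Prf1 (-0.24, 0.017).

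No gene rose. The genes with the smallest p among those higher on day 2 were Timp3, an inhibitor of metalloproteinases (0.32 ± 0.08, adjusted p = 0.34), and Traf3ip2, an adaptor of the interleukin 17 receptor (0.16 ± 0.04, 0.38). Angptl8, an insulin-induced liver hormone that restrains lipoprotein lipase, had the largest difference of the 12 genes named in this direction. It read 8.99 to 9.54 (median 9.31) on day 1 and 10.20, 9.92, 10.19, 9.81 and 9.99 on day 2. All 5 day 2 arrays lay above all 6 day 1 arrays, including replicate 5, and the mean went from 9.31 ± 0.23 to 10.02 ± 0.17, which is 1.64-fold. The difference of 0.72 ± 0.20 (95% interval 0.31 to 1.12) did not pass (adjusted p = 0.49), and with array weights it was 0.82 (0.028). At 18 h after day 2, Angptl8 in air averaged 9.92, and its difference from the same day 1 arrays was 0.62 (adjusted p = 0.12). Apoa4, an apolipoprotein of lipid-rich particles, read 11.08 to 11.57 on day 1 and 11.67, 11.92, 11.67, 11.30 and 11.54 on day 2, with overlap at replicates 4 and 5 (0.33 ± 0.10, adjusted p = 0.52). Mst1, a hepatocyte-derived ligand of macrophages, differed by 0.26 ± 0.08 (0.53) and Atp5mc1, a subunit of the ATP synthase ring, by 0.22 ± 0.06 (0.49). The remaining genes of this kind were Narf (0.12), Prss56 (0.12), the proprotein convertase Pcsk6 (0.18), Zfp267 (0.16), the interferon Ifnk (0.12) and Scaf8 (0.19). Of the 12, Pcsk6 and Traf3ip2 were also higher at 18 h after day 2 than on day 1, by 0.30 (adjusted p = 0.00078) and 0.16 (0.03). Both contrasts share the day 1 air arrays on which the 12 were named, so the values at 18 h are no separate evidence.

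Markers of Kupffer cells and macrophages were lower on day 2 without any of them passing. Of 14 markers 11 were measured; all 11 were lower, 0 fell past the threshold, and their median log2 difference was -0.27 beside 0.012 over all genes. At an unadjusted p under 0.05, 9 of the 11 were lower, against 3.31% of all genes. Cd5l, a protein secreted by tissue macrophages, read 9.75 to 10.24 (median 10.08) on day 1 and 10.13, 9.66, 8.95, 9.09 and 8.85 on day 2. Replicates 2 to 5 lay below every day 1 array, replicates 3 to 5 by the most, and replicate 1 lay among the day 1 arrays (-0.70 ± 0.18, adjusted p = 0.42). Cd5l passed without day 2 air replicate 1 (-0.90, 0.023) and with array weights (-0.83, 0.017). Clec4f, a lectin of Kupffer cells, read 10.40 to 10.75 (median 10.64) on day 1 and 10.82, 10.50, 9.86, 10.10 and 9.86 on day 2 (-0.38 ± 0.15, adjusted p = 0.72). The complement gene C1qa read 9.65 to 10.03 on day 1 and 10.08, 9.71, 9.14, 9.28 and 9.33 on day 2 (-0.39 ± 0.15, adjusted p = 0.72). Replicates 3, 4 and 5 were low for each of these genes, and replicate 1 was the highest day 2 array for each. The smallest differences in the list were those of Cd163 (-0.18) and the mannose receptor Mrc1 (-0.15).

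The median Kupffer marker, set against the day 1 mean, lay at 0.14, -0.10, -0.49, -0.47 and -0.57 in day 2 replicates 1 to 5 and between -0.21 and 0.11 on day 1. The list median stayed between -0.37 and -0.20 without any single air array. The count of 9 became 2 without day 2 air replicate 3, 4 without replicate 4, 2 without replicate 5 and 5 without day 1 air replicate 2. Over the fits without 1 air array it ran from 2 to 11. Over all genes, the count at a limma unadjusted p under 0.05, in either direction, moved as well. It was 406 without day 2 air replicate 5 and 1386 without day 2 air replicate 1, against 873 with all arrays. Counts without single arrays in the lists below stand against this moving background too. In whole liver, fewer cells of a type and less RNA per cell cannot be told apart. Markers of the other cell types had medians near that of all genes, but most of these lists are dim. Their typical level on day 1 was 6.93 to 7.18 for neutrophils and monocytes, 7.23 to 7.38 for erythroid cells and 7.28 to 7.44 for lymphocytes. It was 7.40 to 7.52 for cholangiocytes and 7.46 to 7.61 for stellate cells, against 9.19 to 9.54 for Kupffer markers. Nonspecific probes read 6.66 to 6.75 on 10 arrays, so a fall in the dim lists would be understated. Endothelial markers had a median of -0.01 (11 genes), stellate cell and fibroblast markers -0.00 (15), lymphocyte markers 0.03 (12), cholangiocyte markers 0.02 (10), erythroid markers 0.01 (4) and hepatocyte markers 0.00 (11), with 0 members past the threshold in each. Neutrophil and monocyte markers (7 genes) had a median of -0.01. The lowest member was the monocyte antigen Ly6c, at 8.0 to 8.57 on day 1 and 8.37, 8.12, 7.63, 7.74 and 7.44 on day 2, with replicates 3, 4 and 5 low again (-0.36 ± 0.13, adjusted p = 0.72). In ozone livers the second-day difference of Cd5l was -0.66 (adjusted p = 0.019), and the change in ozone minus the change in air was 0.05 ± 0.26 (0.96).

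**Figure D3:**
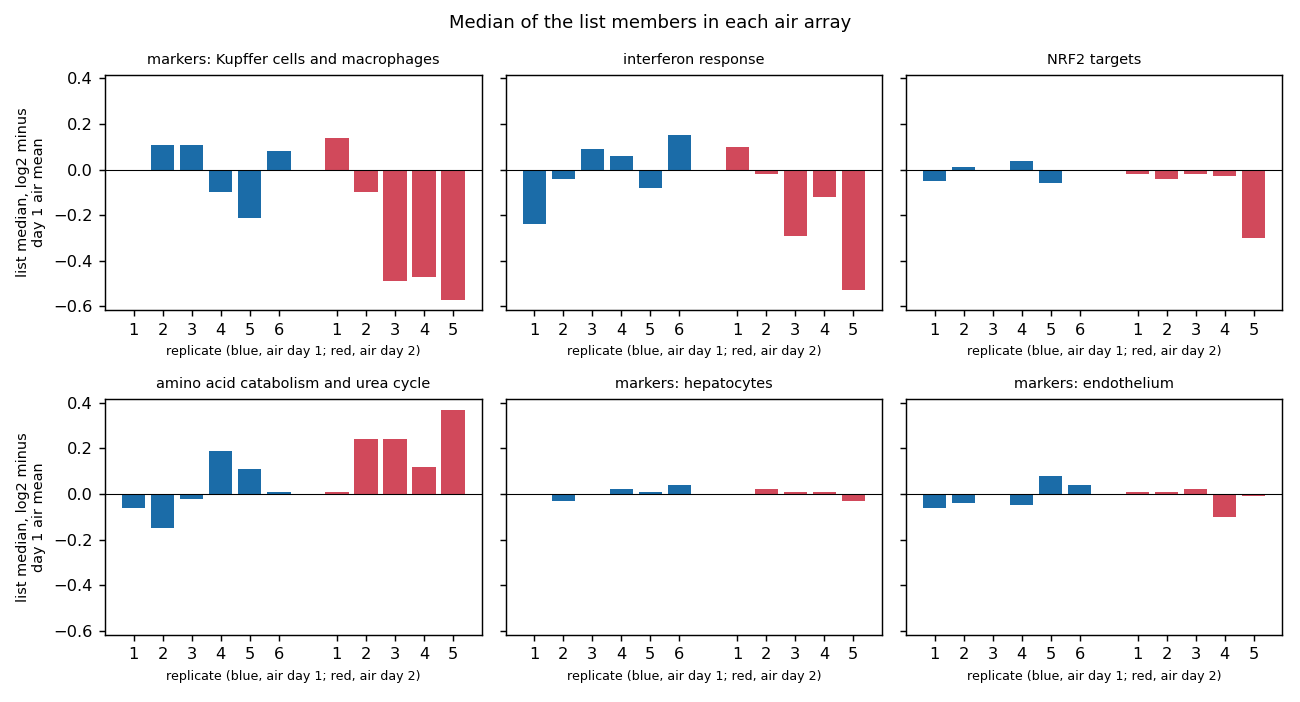
Each bar is 1 air array (blue, day 1 replicates 1 to 6; red, day 2 replicates 1 to 5) and gives the median, over the members of a list, of the log2 level minus the day 1 air mean; arrays with no visible bar lie at 0.00. Kupffer cell markers are low in day 2 replicates 3 to 5, amino acid catabolism is highest in replicate 5, and the hepatocyte and endothelial markers stay within 0.10 of the day 1 mean.

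Interferon response genes were lower in some of the same arrays. Of 23 measured genes 0 passed, 20 were lower and 3 higher, and the median was -0.21. At an unadjusted p under 0.05, 7 of the 23 were lower, beside 3.31% of all genes. Isg15, an interferon-induced ubiquitin-like protein, read 8.46 to 9.65 (median 9.14) on day 1 and 9.71, 9.13, 8.34, 9.02 and 7.72 on day 2 (-0.35 ± 0.27, adjusted p = 0.74; -0.08 without day 2 replicate 5). Replicate 1 was the highest of all 11 arrays and replicate 5 the lowest. Gbp2, an interferon-induced GTPase, read 7.62 to 8.52 on day 1 and 8.13, 7.91, 7.36, 7.51 and 7.08 on day 2 (-0.42 ± 0.17, adjusted p = 0.72). Ifit2, the member with the smallest p, differed by -0.24 ± 0.09 (adjusted p = 0.72; -0.15 without replicate 5). Without day 2 air replicate 5 the median was -0.08 and none of the 23 reached an unadjusted p under 0.05, so this count (0 to 15 over the fits without 1 air array) rests on which arrays are kept. It was 1 without day 1 air replicate 3 or day 2 air replicate 3, 3 without day 1 replicate 6, 4 without day 1 replicate 4, 11 without day 1 replicate 1 and 15 without day 2 replicate 1.

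Genes of amino acid breakdown and the urea cycle were mostly higher on day 2, again with none past the threshold. Of 20 measured genes 19 were higher, 9 of them at an unadjusted p under 0.05 against 3.19% of all genes, and the median was 0.23. Sds, serine dehydratase, read 9.58 to 11.32 (median 10.75) on day 1 and 10.42, 11.61, 11.85, 11.34 and 12.16 on day 2 (0.86 ± 0.37, adjusted p = 0.72). Got1, the cytosolic aspartate aminotransferase, read 9.50 to 10.89 on day 1 and 10.08, 10.87, 11.06, 10.47 and 12.13 on day 2 (0.64 ± 0.33, adjusted p = 0.72; 0.34 without day 2 replicate 5). Prodh, the proline dehydrogenase, read 9.36 to 9.87 on day 1 and 9.73, 9.85, 10.08, 9.93 and 10.26 on day 2 (0.40 ± 0.14, adjusted p = 0.72). The day 2 replicate 5 was the highest of the 11 arrays for each of them and day 1 replicate 2 the lowest, and the groups overlapped. Nags, which makes the activator of the urea cycle, had the smallest p (0.23 ± 0.07, adjusted p = 0.72; 0.15 without replicate 5). The ornithine aminotransferase Oat differed by 0.32 ± 0.14, the glutaminase Gls2 by 0.29 ± 0.11 and the urea cycle genes Ass1 and Arg1 by 0.18 and 0.15, whereas Cps1 (0.03) and Otc (0.04) of the same cycle were nearly level.

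The list median of amino acid catabolism was 0.14 without day 2 air replicate 5, with 3 members at an unadjusted p under 0.05. It was 0.20 without day 1 air replicate 2 and 0.22 without day 2 air replicate 3, with 3 members each. Without replicates 5 of day 2 and 2 of day 1 together it was 0.11, with 17 of 20 higher and 0 at that level. The glucocorticoid-induced genes, several of which belong to the same pathway, had a median of 0.06 (18 genes), and the classic responders Fkbp5 (0.08), Tsc22d3 (0.05), Per1 (0.07) and Sgk1 (-0.05) did not pass. The gluconeogenesis and fasting list had a median of 0.04 over 14 genes, and its rate-limiting Pck1 (-0.02) and G6pc1 (0.04) were level between days.

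Among genes of lipid synthesis, the day 2 arrays lay far apart. Scd, the stearoyl-CoA desaturase that makes oleate, read 9.23 to 9.96 (median 9.59) on day 1 and 9.95, 10.97, 11.75, 11.21 and 8.64 on day 2. Replicates 2, 3 and 4 lay above every day 1 array and replicate 5 below every one of them (0.94 ± 0.43, adjusted p = 0.72). The difference was 1.40 without replicate 5 and 0.62 without replicate 3. Fatty acid synthase, Fasn, had a similar order on day 2, at 9.74, 9.91, 10.11, 10.22 and 8.69, against 9.20 to 10.10 on day 1 (0.19 ± 0.24, adjusted p = 0.82; 0.45 without replicate 5 and 0.07 without replicate 4). The citrate lyase Acly read 10.46, 10.61, 11, 11.37 and 9.01 on day 2 and 10.25 to 10.97 on day 1 (-0.09 ± 0.28, adjusted p = 0.93). Its direction rests on replicate 5, without which the difference was 0.28. The median of the 19 genes of fatty acid and triglyceride synthesis was 0.03. That of 17 cholesterol synthesis genes was 0.07, and 0.19 without day 2 air replicate 5. Insig1, which holds back the sterol-sensing SREBP pathway, read 10.67 to 11.56 on day 1 and 11.27 to 11.92 on day 2 (0.56 ± 0.25, adjusted p = 0.72). Fatty acid oxidation and ketone body formation (20 genes) held 0 genes past the threshold and had a median of -0.01.

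None of the remaining lists held a gene past the threshold. The cold-inducible list has 2 genes, Rbm3 and Cirbp, with a median of 0.21, or 0.00 without day 2 air replicate 5. The RNA-binding protein gene Rbm3 read 7.90 to 8.60 on day 1 and 8.39, 8.52, 8.19, 8.39 and 10.12 on day 2 (0.36 ± 0.27, adjusted p = 0.73), so replicate 5 alone lay above the day 1 range. The circadian clock genes follow the time of day, and whether the harvests of both days fell at the same hour was not tested. Of 19 of them 0 passed, the median was 0.02 and the range ran from -0.07 (Hlf) to 0.20 (Per2), and the output gene Dbp, which swings widely over the day, was at 0.01. Acute phase genes had a median of 0.03 (26 genes, lowest -0.10, highest 0.29 for A2m, which was 0.16 without day 2 replicate 5), integrated stress response genes -0.01 (18), heat shock and unfolded protein genes -0.08 (19), growth hormone and STAT5 targets -0.08 (18), metallothionein and zinc genes 0.02 (7), bile acid genes -0.03 (18) and cytosolic ribosomal proteins -0.04 (12). NRF2 targets, which respond to oxidants, had a median of -0.02 (19 genes). The lowest was Gclm, a regulatory subunit of glutamate-cysteine ligase in the glutathione pathway, at 10.19 to 10.77 on day 1 and 10.49, 9.83, 10.36, 10.42 and 9.09 on day 2 (-0.47 ± 0.19, adjusted p = 0.72; -0.23 without day 2 replicate 5). At an unadjusted p under 0.05, 4 of the 19 were lower, beside 3.31% of all genes, 2 without day 1 air replicate 2, 1 without day 2 air replicate 2 and 0 without day 2 air replicate 5.

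**Figure D4:**
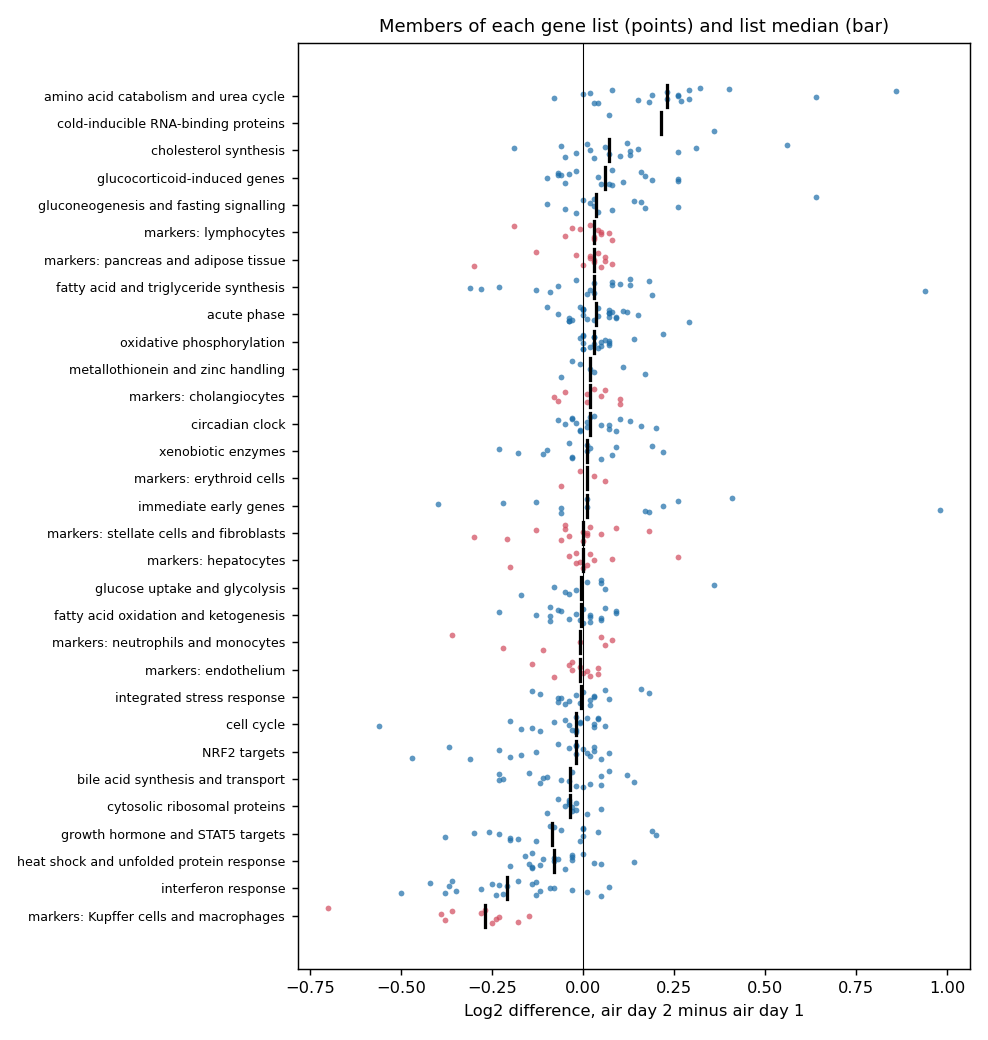
Log2 difference (day 2 air minus day 1 air) of every measured member of the 31 gene lists (points; blue, pathways; red, cell type markers) and the median of each list (black bar), sorted by median. The lowest medians are those of Kupffer cell markers (-0.27) and interferon response (-0.21), the highest is that of amino acid catabolism (0.23), and the point of the cell cycle list at -0.56 is Ccnd1.

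Some liver genes varied widely between arrays of the same group. The days differed little for some of them (Cyp7a1, 0.00) and more for others (Egr1, 0.98, and Scd, 0.94). The 10 genes of above-median level with the largest spread within both air groups were chosen on that spread and are a description. Egr1, an immediate early transcription factor, read 7.62 to 11.52 (median 8.61) on day 1 and 9.92, 10.27, 9.93, 9.84 and 11.13 on day 2 (limma adjusted p = 0.72). On day 1, replicates 5 and 6 read above 10 and the other 4 below 9. Jun, which is induced with it, read 8.52 to 11.08 on day 1, with replicate 6 highest, and 8.94 to 9.97 on day 2. Onecut1 and Bcl6, transcription factors under growth hormone control, are set side by side here. In day 1 replicates 1 to 6, Onecut1 read 10.56, 8.39, 9.35, 10.28, 8.74 and 7.97, and Bcl6 read 7.38, 9.31, 7.91, 8.04, 9.24 and 9.39. On day 2, Onecut1 read 9.31, 10.38, 10.15, 8.10 and 7.70, and Bcl6 read 7.49, 8.27, 7.90, 9.63 and 9.03. On each day the 2 arrays with the lowest Onecut1 were the 2 with the highest Bcl6. The means of the days differed by -0.09 (Onecut1) and -0.08 (Bcl6). Onecut1 turned to 0.27 without day 2 replicate 5, and Bcl6 to 0.16 without day 2 replicate 1.

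Cyp7a1, the rate-limiting enzyme of bile acid synthesis, read 9.40 to 11.20 (median 10.45) on day 1 and 9.17, 11, 11.28, 11.04 and 9.48 on day 2, and its means were 10.39 ± 0.63 and 10.39 ± 0.99. Its difference ran from -0.22 without day 2 replicate 3 to 0.31 without day 2 replicate 1. Zfp354a, a zinc finger gene, read 8.48 to 10.88 on day 1 and 8.90 to 10.33 on day 2 (-0.18, and 0.05 without day 2 replicate 1). In Mx2, Nrep and Ifgga2l1 day 2 replicate 5 was the low array. Mx2, an interferon-induced GTPase, read 8.85 to 10.11 on day 1 and 10.33, 9.66, 8.75, 9.58 and 7.35 on day 2. Nrep read 9.79 to 10.83 on day 1 and 10.41, 10.99, 10.30, 10.22 and 7.92 on day 2, and Ifgga2l1 10.36 to 10.83 and 11.02, 10.78, 10.22, 10.43 and 7.98. Without replicate 5 the differences of Mx2, Nrep and Ifgga2l1 went from -0.50, -0.45 and -0.46 to -0.05, 0.06 and 0.06.

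**Figure D5:**
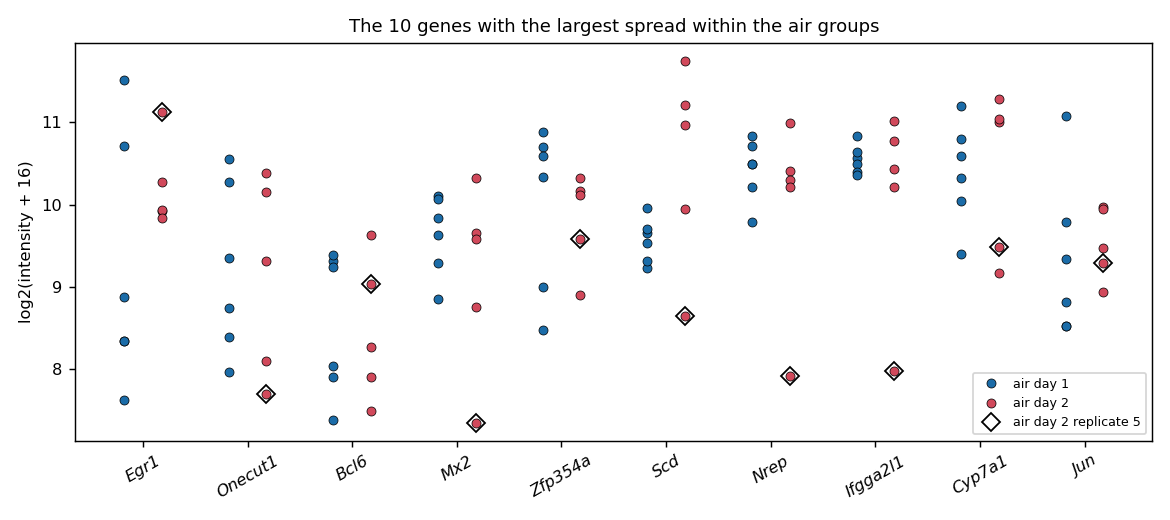
Level of the 10 genes with the largest spread between arrays within the air groups, log2(intensity + 16); each point is an array (blue, day 1 air; red, day 2 air) and diamonds mark day 2 air replicate 5. Points of both days overlap for each of the 10 genes, and replicate 5 is the lowest of the 11 arrays for Onecut1, Mx2, Scd, Nrep and Ifgga2l1.

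The last comparison asked whether the second day in ozone differed from the second day in air. The change in ozone minus the change in air passed for 492 genes (3.66%), 298 of them higher in ozone (2.22%) and 194 lower (1.44%). Because the air difference is one term of this contrast, a gene named here for its small p in air is more likely to pass it. Cd63 differed by -0.42 in air and 0.29 in ozone (difference 0.71 ± 0.14, adjusted p = 0.0063). Plekha8 differed by -0.20 in air and 0.08 in ozone (0.28 ± 0.06, 0.007), and Anxa7 by -0.17 and 0.11 (0.27 ± 0.05, 0.0052). In the other direction, Atp5mc1 differed by 0.22 in air and -0.20 in ozone (-0.41 ± 0.09, 0.0081), and Scaf8 by 0.19 (0.12 without day 2 air replicate 5) and -0.25 (-0.44 ± 0.08, 0.003). The zinc transporter Slc39a14 differed by 0.11 and -0.41 (-0.53 ± 0.11, 0.0086). These 6 genes passed in all 22 fits without 1 end-of-exposure array. The contrast is also the ozone minus air difference on day 2 less that on day 1, so differences already present on day 1 enter it. That difference was 0.50 on day 1 and 0.06 on day 2 for Scaf8, and 0.37 and -0.05 for Atp5mc1. It was -0.28 and -0.00 for Plekha8, -0.24 and 0.03 for Anxa7, and -0.40 and 0.30 for Cd63. Scd differed by 0.94 and -1.28 (-2.22 ± 0.61, adjusted p = 0.038), and missed the threshold in 14 of the 22 (adjusted p 0.0089 to 0.10, the highest without day 2 ozone replicate 5). The number of genes past the threshold was 316 without day 2 air replicate 5, 312 without day 2 ozone replicate 1 and 213 without day 2 ozone replicate 5.

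The intervals show how closely each difference was measured, and not how small a change would pass the threshold. The 95% interval of a gene's log2 difference reached a median of 0.10 to either side (5th to 95th percentile 0.06 to 0.21). For 13201 genes (98.2%) it lay within 0.5 of 0 and for 13416 (99.8%) within 1. For the other 21 genes, a difference of 1 or more between both days was not excluded by the interval. These intervals use the spread shared by all 6 groups and are not adjusted for the number of genes. Angptl8, with an interval of 0.31 to 1.12, did not pass (limma adjusted p = 0.49). For dim genes they bound a difference that background signal makes smaller.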

How the data were processed

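The authors summarised each array to probe-set intensities by the PLIER method of Affymetrix Expression Console (submitters' processing notes, labels). The sources used here give no version, background correction or scaling. The deposited intensity values are linear, from 30.5 to 15558, and were not rescaled. Of 31139 probe sets, 97 controls, 11407 without a gene and 573 with several genes were left out. Entrez identifiers of 18983 of the 19062 tested were found in RefSeq, and 0 symbols changed. Groups and replicate numbers came from the sample titles.

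Values were analysed as log2(intensity + 16), with no filter on low values, in limma 3.58.1 (R 4.3.3): a mean for each of the 6 groups over all 32 arrays, eBayes with an intensity trend, two-sided p-values adjusted by the Benjamini-Hochberg method over all 19062 probe sets, threshold 0.05. All adjusted p-values in the text come from this fit unless another is named. Actin ratios were compared by an exact permutation test. The procedure was tested on simulated data. Python 3.11.15, pandas, numpy and matplotlib made tables and figures.

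The genes named were the 12 with the smallest p in each direction, past the threshold or not, the member of each of 31 lists with the smallest p, and the 10 with the largest spread, with unannotated loci passed over; other genes named were chosen after their values were seen. The comparison and the lists were chosen with earlier results of these data known. Alternatives were the 2 air groups alone, the replicate number as a block, quantile and median scaling, offsets of 1 and 64, a filter at the 25th percentile, that filter with 1 probe set per gene, no trend, array weights, and arrays left out. Fits without each ozone array were added after the data were seen.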

Additional observations from a re-analysis of the deposited data

Results flagged for a closer look

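In 14 of 122 groups of values (the named probe sets in each air group), 1 array lay far from the rest of its group by Dixon's test. A rate of about 1 in 20 holds for independent groups that were not selected. These probe sets share the same 11 arrays, and some were chosen for their spread or small p in them. The count is therefore a description and cannot be set against that rate. Of these, 11 were on day 2, 8 of them in replicate 5, and 3 on day 1. In day 2 air replicate 5, Pcsk6 read 8.62 against 8.48 to 8.51 in the other 4 arrays, Scaf8 8.95 against 8.54 to 8.62, Nags 10.04 against 9.62 to 9.72, and the cold-inducible RNA-binding protein Rbm3 10.12 against 8.19 to 8.52. The same array was low for the glutathione transferase Gstm1 (11.45 against 11.81 to 11.91), the elastase Cela1 (9.84 against 10.36 to 10.39), Nrep (7.92 against 10.22 to 10.99) and Ifgga2l1 (7.98 against 10.22 to 11.02). In day 2 air replicate 4, the bile acid enzyme Hsd3b7 was high at 10.74 (others 10.50 to 10.57) and the endothelial receptor Lyve1 low at 9.60 (9.91 to 10.01). In day 2 air replicate 1, the sterol enzyme Hsd17b7 was low at 8.35 (8.54 to 8.62). In day 1 air replicate 2, Zdhhc23 was high at 8.25 (7.99 to 8.07) and the keratin Krt7 low at 7.01 (7.19 to 7.30), and in day 1 air replicate 5 the ribosomal protein gene Rpl4 was low at 11.44 (11.50 to 11.54).

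For 8 of the 61 named probe sets the second-day change differed between ozone and air by a test of the difference itself (limma, change in ozone minus change in air). They were Ccnd1 on 1371150_PM_at (0.73, adjusted p = 0.031), Atp5mc1 (-0.41, 0.0081), Scaf8 (-0.44, 0.003), Plekha8 (0.28, 0.007), Anxa7 (0.27, 0.0052), Cd63 (0.71, 0.0063), Scd (-2.22, 0.038) and Slc39a14 (-0.53, 0.0086). Over all genes 492 (3.66%) passed this test. Many named genes were chosen for a small p in air, a term of the same contrast, so their share is no result about them. Ccnd1 and Scd missed the threshold in 10 and 14 of 22 fits without 1 end-of-exposure array. The cause was not tested for any of these results.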

How the results depend on the processing

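Ccnd1 was lower on day 2 under all alternatives, with its 3 probe sets (1371643_PM_at, 1383075_PM_at and 1371150_PM_at in this order) between -0.61 and -0.48, -1.33 and -1.01, and -1.09 and -0.89 without single arrays. It did not pass with the 2 air groups alone (-0.56, -1.21 and -1.0), nor with the replicate number as a random block (-0.56, -1.21 and -1.0; adjusted p = 0.49, 0.39 and 0.39) or a fixed block (-0.53, -1.17 and -0.97; 0.63, 0.21 and 0.21), where 0 probe sets and 0 genes passed. The numbers do not pair the arrays: same-numbered arrays deviated together with correlations of -0.12, 0.18, -0.31, -0.09 and 0.31. Without day 2 air replicate 5 and day 1 air replicate 2 together the differences were -0.49, -0.97 and -0.84 (0.10, 0.067 and 0.023), and 1 probe set and 0 genes passed. Counts of probe sets past the threshold were 1 after filtering to 1 probe set per gene, 139 with array weights, 5 without 4 arrays (day 2 air replicate 5, day 2 ozone replicate 5, and replicates 1 and 5 of air at 18 h), and 2 to 13 without single arrays. Counts of genes were 2 with quantile scaling, 101 with array weights (25 higher and 76 lower), 3 without those 4 arrays and 0 to 6 without single arrays (0 without day 1 replicate 6, day 2 replicate 3 or day 2 replicate 5). Array weights gave day 1 air replicate 2 a weight of 0.1113 and day 2 air replicate 3 a weight of 4.211. The count for ozone minus air was 817 with array weights, 252 without the 2 and 237 without the 4 arrays, and 213 to 721 without single arrays; a fit of the air groups alone gives none. The actin ratio difference ranged from -0.129 to -0.0265 and that of Gapdh from -0.0562 to -0.0181 without single arrays.

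Of 58 other named genes, 21 passed in at least 1 of up to 24 alternatives. Of all 61 named probe sets 7 changed sign in at least 1 alternative, none of them past the threshold with all arrays: Dcn (0.18, and -0.06 with array weights) and, without single arrays, Onecut1, Bcl6, Zfp354a, Nrep, Ifgga2l1 and Cyp7a1. Scd was 1.40 (adjusted p = 0.0082) without the 4 arrays. List medians moved by more than their spread between arrays for fatty acid oxidation (-0.11), cell cycle (-0.07) and metallothionein genes (0.05) with array weights, for cell cycle without the 2 arrays (-0.07), for metallothionein genes without day 2 replicate 2 (0.05), and for neutrophil markers after filtering (-0.22, 3 genes). The causes were not tested. Background signal remains in the intensities, so differences of dim genes are understated.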
